A study of Mus musculus with 20 samples.

Results

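Kinesins are motor proteins that walk along microtubules, most of them toward the plus end, using the energy of ATP. Mitotic members build and move the spindle and complete cell division, transport members carry vesicles and organelles, and ciliary members move cargo into and along the cilium or limit its growth. In an antral follicle the granulosa cells divide as the follicle grows, so transcripts of mitotic kinesins are a feature of this tissue, while granulosa and theca cells carry primary cilia and not the motile cilia of the oviduct.

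The family was taken by name: every gene of the deposited count table that the authors marked as kept and whose symbol begins with Kif or Kifc followed by a digit. Of 39253 genes in the table, 45 had such a symbol and 39 of those were kept. All 39 were among the 17810 genes tested. They comprise 14 mitotic, 12 transport and 9 ciliary kinesins, and 4 others (Kif21a, Kif21b, Kif26a and Kif26b) that belong to no single class. The 6 symbols not kept averaged at most 4.84 estimated counts per mouse: Kif19b at 4.84, Kif16bos at 2.07, Kif28 at 1.49, Kif4-ps at 0.752, Kif12 at 0.301 and Kif2b at 0.

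Iodoacetic acid (IAA) is a by-product of water disinfection. Females of the outbred CD-1 stock were given IAA in their drinking water at 10 mg/L (5 mice), IAA at 500 mg/L (5 mice) or reverse osmosis water alone (10 control mice) for 35 days from 40 days of age. Antral follicles of 220 to 400 µm were dissected in diestrus at 75 days, and each library held the 30 to 40 follicles of 1 mouse, so replicates are animals. Experiment 1 held the mice at 500 mg/L with control replicates 6 to 10, and experiment 2, run 1 month apart from it, held the mice at 10 mg/L with control replicates 1 to 5. A dose is therefore confounded with an experiment wherever all controls are combined, and each dose was also set against its own controls. Library totals were 39.9 to 51.5 M estimated counts (M for mega) at 10 mg/L, 43.1 to 67.5 M at 500 mg/L and 41.7 to 51 M in controls.

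The libraries carried the markers of the labelled tissue. Inha, an inhibin subunit made by granulosa cells, averaged 5480 ± 1020 CPM (counts-per-million of the scaled library, SD, n = 20 mice), and Gdf9, a growth factor secreted by the oocyte, averaged 114 ± 24.4 CPM. Foxj1, the master regulator of motile cilia in the oviduct, averaged 0.372 ± 0.316 CPM. The 7 tested markers of ciliated oviduct epithelium summed to 9.86 to 15.5 CPM at 10 mg/L, 10.9 to 14.8 CPM at 500 mg/L and 9.13 to 13.6 CPM in controls. In bulk follicles, a different number of cells of a type and a different amount of RNA per cell cannot be told apart.

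Promoters of the mitotic members share letters that the name rule did not use. RefSeq (GRCm38.p6) gave a window of 250 bases before to 50 after the start for 31 of the 39 members. The search took 3 motifs on both strands: TTTGAA, the core of the cell cycle genes homology region (CHR) found in many genes expressed in late cell cycle phases, CCAAT, the box bound by NF-Y, and GTTGCC, a half-site of the X-box bound by RFX factors, which regulate genes of cilia. The CHR core stood in the windows of 11 of 13 mitotic kinesins (84.6%), 1 of 7 transport kinesins (14.3%) and 1 of 8 ciliary kinesins (12.5%), against 15.2% of the 13921 kept genes with a window. CCAAT stood in 8 of 13 mitotic (61.5%), 1 of 7 transport (14.3%) and 5 of 8 ciliary windows (62.5%), against 42.2% of kept genes. Kifc1 and Kifc5b, which are nearly identical genes, both count among the 11 mitotic members with the CHR core and the 8 with CCAAT. They are not independent of each other. GTTGCC stood in 3 of 13 mitotic (23.1%), 3 of 7 transport (42.9%) and 4 of 8 ciliary windows (50%), against 14.5%. Letters that match are a description and do not show that a factor binds there. The 100 bases before the start are shown for 4 mitotic members, of which Kif11 and Kif22 carry both the CHR core and CCAAT there, Kif15 only the core and Kif18b only CCAAT, and for Kif16b, the transport member with the smallest p at 500 mg/L, in which neither CHR nor CCAAT occurs. Each runs 5′ to 3′ on the strand of its gene, with the CHR core and the CCAAT box in capitals, each also where its letters lie on the opposite strand.
Kif11, chr19:37376282-37376381, plus strand: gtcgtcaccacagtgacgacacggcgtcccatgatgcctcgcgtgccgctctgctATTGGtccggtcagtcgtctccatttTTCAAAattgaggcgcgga
Kif15, chr9:122950981-122951080, plus strand: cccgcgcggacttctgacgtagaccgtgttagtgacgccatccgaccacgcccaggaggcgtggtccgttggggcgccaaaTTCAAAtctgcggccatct
Kif22, chr7:127042421-127042520, minus strand: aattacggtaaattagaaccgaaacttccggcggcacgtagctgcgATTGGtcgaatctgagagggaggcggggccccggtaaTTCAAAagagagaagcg
Kif18b, chr11:102925125-102925224, minus strand: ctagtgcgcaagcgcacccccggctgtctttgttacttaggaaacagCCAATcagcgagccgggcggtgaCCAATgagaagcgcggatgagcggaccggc
Kif16b, chr2:142901465-142901564, minus strand: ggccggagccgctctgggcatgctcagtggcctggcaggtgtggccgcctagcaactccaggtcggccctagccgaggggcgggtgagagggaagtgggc

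In these 100 bases of Kif11, the first base of the CHR core lay 19 bases before the start and that of CCAAT 45 bases before it. In Kif22 they lay 17 and 54 bases before it. The stretch of Kif15 had the core at 19 bases and no CCAAT, and Kif18b had CCAAT at 53 and 30 bases with its CHR core just inside the transcript.

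Levels were compared between genes as CPM per kb of the longest coding transcript, which does not show which transcript the follicles used. Kif5b, the ubiquitous heavy chain of conventional kinesin, was the highest on this scale at 35.1 ± 3.76 CPM per kb (SD, n = 20 mice), and 3 genes of different classes came next. Kif22, a chromokinesin that pushes chromosome arms, stood at 26.7 CPM per kb, Kif3a, a subunit of the motor for anterograde intraflagellar transport, at 26.5, and Kif1c, which carries dense core vesicles, at 23.1. Kif1b, which carries vesicles and mitochondria, had 16 CPM per kb. Kif22 and Kif3a differed by less than their SD over mice. The order depends on the length used: per kb of the median coding transcript, Kif22 came first at 80.0, before Kif15 at 64.2, Kifc3 at 63.4 and Kif5b at 52.7 CPM per kb. The mitotic class had the highest median, 10.8 CPM per kb (range 3.07 to 26.7), ahead of transport (8.81, range 0.511 to 35.1), the 4 others (4.16) and the ciliary class (2.54, range 0.222 to 26.5). The order of the class medians was the same with the median transcript, at 17.7, 12.6, 4.21 and 2.83 CPM per kb.

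**Figure D1:**
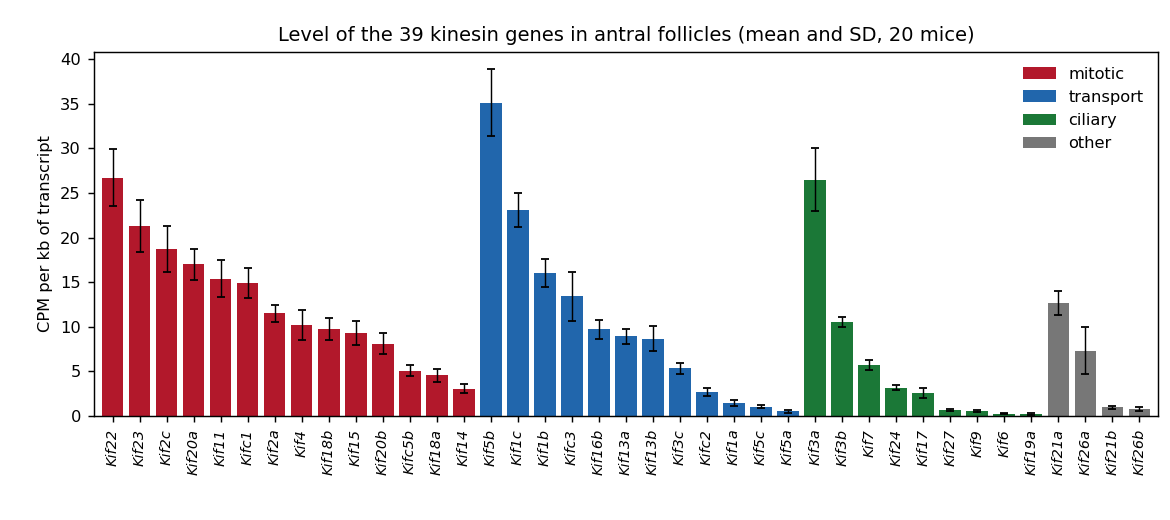
Mean level of each of the 39 kinesin genes in CPM per kb of the longest coding transcript, with bars coloured by class and error bars giving the SD over 20 mice. Every mitotic member is above 3 CPM per kb, Kif5b (35.1) is the highest for this transcript length (rank 4 with the median transcript), and the motile cilia members Kif9, Kif27, Kif6 and Kif19a lie under 1.

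The ciliary members are given by role. Kif3a, its partner Kif3b (10.5 CPM per kb) and Kif7 (5.69 CPM per kb), which acts in Hedgehog signalling at the tip of the primary cilium, were well detected. Kif24, a centriole protein that restrains cilium assembly, had 3.16 CPM per kb, and Kif17, an accessory ciliary motor, 2.54. Members linked to motile cilia were low: Kif27 0.659, Kif9 0.573, Kif6 0.26 and Kif19a 0.222 CPM per kb. Among transport kinesins the neuronal heavy chains Kif5a and Kif5c had 0.511 and 1.03 CPM per kb, and Kif1a, a carrier of synaptic vesicle precursors, had 1.5.

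The spread between mice of a group is given by class. The biological coefficient of variation, which removes counting error, had a median of 13.8% over mitotic, 14.1% over transport and 19.4% over ciliary kinesins, against 17.8% over all genes tested. This measure depends on level, and among genes of like level the order of the classes turned: the median percentile was 67.7 for mitotic, 51.3 for transport and 32.5 for ciliary members. Of the mitotic members 11 of 14 varied more than the median gene of like level, of the transport members 6 of 12 and of the ciliary members 3 of 9. Kif3b was the steadiest member at 7.83% and Kif19a the least steady at 51.3%, at a level under 1 CPM. Kif26a, an atypical kinesin without motor activity, varied by 28.1%, above 95.6% of genes of like level. Over all 20 mice its highest (80.7 CPM, a control) was 3.47-fold its lowest (23.2 CPM, at 500 mg/L), a ratio that includes differences between groups. Kif26b, its relative, varied by 31.1%.

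No kinesin passed at 10 mg/L. Against all controls edgeR's quasi-likelihood test with Benjamini-Hochberg adjustment over all 17810 genes called 0 of 39 members, against 0.00561% of all genes. At an unadjusted p under 0.05 it gave 0 of 39, against 6.22% of all genes (3.08% higher and 3.14% lower). Of the mitotic members 5 of 14 had a positive log2 change (median -0.03), of the transport members 5 of 12 (median -0.01) and of the ciliary members 5 of 9 (median 0.00), beside 49.9% of all genes (median -0.00). The 95% intervals of the 14 mitotic changes lay between -0.36 and 0.36. They hold no uncertainty for experiment, with which the dose is confounded here. DESeq2 and the other tools run also called 0 kinesins here.

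The smallest p at 10 mg/L belonged to Kif23, a subunit of the centralspindlin complex that organises the central spindle. Its level was 58.2, 59.5, 56.7, 72.4 and 75.4 CPM in the mice at 10 mg/L, against a lowest of 55.5, a median of 70.8 and a highest of 88.4 CPM in the 10 controls. Replicates 1 to 3 were low but within the control range, and replicates 4 and 5 lay above the control median, so the groups overlapped. Its log2 change was -0.17 (SE 0.09, adjusted p = 0.819). Next came Kif3c, a relative of Kif3b that pairs with Kif3a in neurons, at -0.15 (SE 0.09, adjusted p = 0.827), and Kif16b, an endosome motor, at 0.10 (SE 0.06, adjusted p = 0.834). With only the controls of experiment 2 as comparison, 0 of 39 members were called and 0 had an unadjusted p under 0.05 (all genes: 0% called and 6.45% unadjusted, 3.78% higher and 2.66% lower), and DESeq2 called 0. The smallest p there was that of Kifc2, a minus-end directed motor, with a log2 change of 0.25 (SE 0.13, adjusted p = 0.781). Endothelial markers stood higher at this dose: all 8 had a positive log2 change against the same controls, 7 at an unadjusted p under 0.05, and they summed to 286 to 419 CPM at 10 mg/L against 238 to 326 CPM in those controls. Luteal markers had 5 of 6 positive there with a median of 1.12, 2 of them at an unadjusted p under 0.05, and summed to 673 to 3170 CPM at 10 mg/L against 409 to 1580 CPM in those controls. Erythroid markers had 5 of 5 positive (median 0.40), and of 8 theca markers 4 were positive (median 0.02), with 2, Star (1.79) and Cyp11a1 (0.96), at an unadjusted p under 0.05. The part of these markers in the kinesin values was not tested.

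At 500 mg/L 32 of 39 kinesins had a positive log2 change against all controls, the same 10 mice that served for 10 mg/L, and none passed. edgeR called 0 of 39 members, against 0.0112% of all genes. At an unadjusted p under 0.05 there were 8 of 39, 7 with a positive and 1 with a negative change, against 8.69% of all genes (4.51% higher and 4.18% lower). All 14 mitotic members had a positive log2 change, with a median of 0.12 and a range of 0.03 to 0.29. Of the transport members 10 of 12 were positive (median 0.04), and of the ciliary members 6 of 9 (median 0.03), beside 49.9% of all genes (median -0.00).

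**Figure D2:**
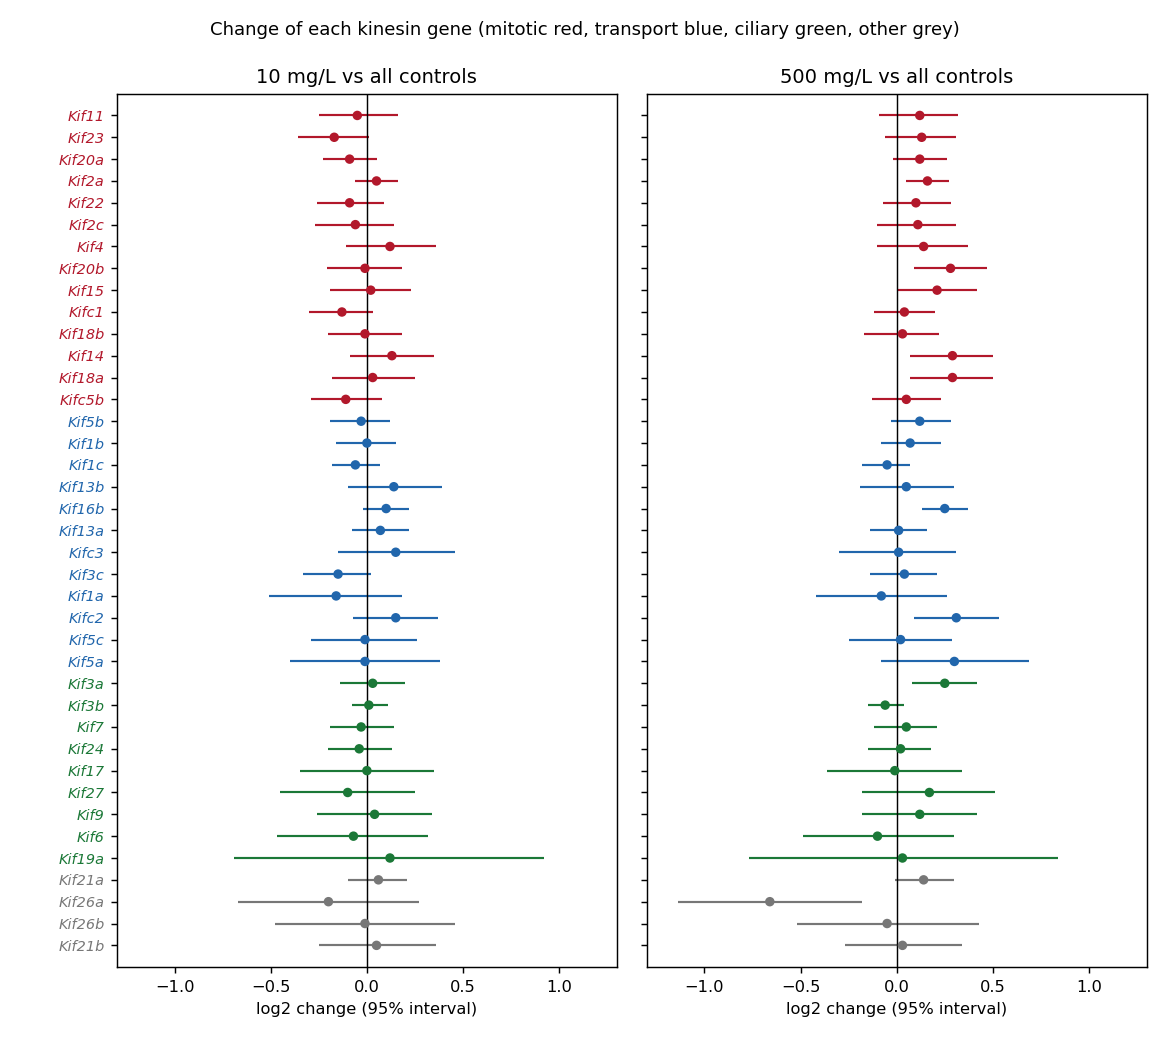
Log2 change of each kinesin gene at 10 mg/L (left) and 500 mg/L (right) against all 10 controls, with 95% intervals, coloured by class. The 14 mitotic points at 500 mg/L all lie right of 0 (median 0.12) and those at 10 mg/L lie on both sides (median -0.03), and Kif26a (-0.66) is the lowest point at 500 mg/L.

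Kif16b, which moves early endosomes through a lipid-binding PX domain, had the smallest p. Its level was 61.6, 63.6, 72.7, 69.2 and 80.2 CPM in the mice at 500 mg/L, against a lowest of 52.7, a median of 57.9 and a highest of 65.2 CPM in the controls. Replicates 3, 4 and 5 were above every control, and replicates 1 and 2 lay within their range. The log2 change was 0.25 (SE 0.06, unadjusted p = 0.000546, adjusted p = 0.249 by edgeR's quasi-likelihood test). DESeq2 called it, with an adjusted p of 0.0315, and no other tool run did. In the authors' deposited table it was the single kinesin called at 500 mg/L, with a fold change of 1.18 and a false discovery rate of 0.0491, among 229 genes called in all. Against the controls of its own experiment, which had 58.4, 52.7, 61.7, 61 and 65.2 CPM, the edgeR change was 0.22 (SE 0.07, adjusted p = 0.954). At 10 mg/L Kif16b had 70, 62.1, 58.1, 61.1 and 61.6 CPM.

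Among the mitotic members Kif20b, which acts late in cytokinesis, had 45.6, 57.4, 57, 47.9 and 53.2 CPM at 500 mg/L, against a lowest of 34.2, a median of 43.9 and a highest of 50.1 CPM in controls. Replicates 2, 3 and 5 were above every control and the other two were not. Its log2 change was 0.28 (SE 0.10, adjusted p = 0.4). Kif14, which recruits citron kinase to the midbody, had a change of 0.29 (SE 0.11, adjusted p = 0.462), as did Kif18a, which damps chromosome movements at the metaphase plate (0.29, SE 0.11, adjusted p = 0.462). Kif2a, a microtubule depolymerase of spindle poles, had 0.16 (SE 0.06, adjusted p = 0.428). The members with the smallest changes were Kif18b, which shortens astral microtubules, at 0.03, Kifc1, a minus-end motor that focuses spindle poles, at 0.04, and Kifc5b, at 0.05. Kifc5b is nearly identical to Kifc1 and reads can be split between them, so neither value is certain.

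In the other classes, Kif3a had 93, 107, 107, 78.8 and 85.7 CPM at 500 mg/L, against a lowest of 68.7, a median of 76.7 and a highest of 99.8 CPM in controls. Replicates 2 and 3 were above every control. The log2 change was 0.25 (SE 0.09, adjusted p = 0.422) against all controls. Its own controls had 77.5, 76, 83.4, 93.2 and 99.8 CPM, and against them the change was 0.13 (SE 0.09, adjusted p = 0.963). Kifc2 had a change of 0.31 (SE 0.11, adjusted p = 0.437) at a level of 8.61 to 11.5 CPM at 500 mg/L, against 6.33 to 9.39 CPM in controls.

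Kif26a stood at 35.5, 49.3, 35.9, 39.8 and 23.2 CPM at 500 mg/L, against 74.5, 69.1, 45.8, 80.7 and 71.3 CPM in its own controls. Only replicate 2 at 500 mg/L reached above the lowest own control, replicate 8. The log2 change was -0.89 (SE 0.26, adjusted p = 0.831) against own controls and -0.66 (SE 0.24, adjusted p = 0.458) against all controls. The controls of experiment 2 had 55.9, 39.1, 36.7, 73.4 and 33.2 CPM, and the mice at 10 mg/L had 62.1, 78.1, 36.7, 40.4 and 35.3 CPM. Both of these sets overlapped the mice at 500 mg/L and their controls. In the authors' deposited table the signed fold change of Kif26a at 500 mg/L was -1.55, where a minus marks a lower level at 500 mg/L, with a false discovery rate of 0.0529.

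**Figure D3:**
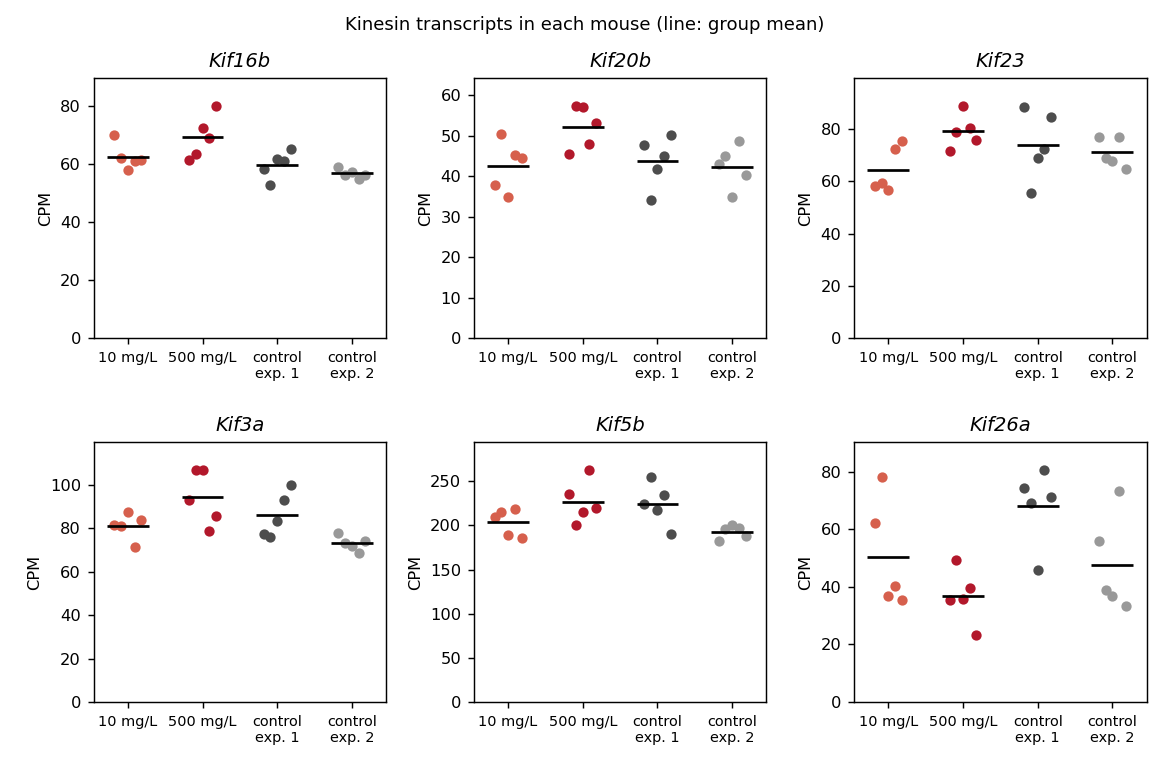
CPM of 6 kinesin genes in each mouse, by dose and, for the controls, by experiment, with lines at group means. All but Kif26a have their highest mouse at 500 mg/L, by little in Kif23 (89 against 88.4 CPM in a control) and Kif5b (263 against 255 CPM). Kif26a is low there (23.2 to 49.3 CPM) beside the controls of experiment 1 (45.8 to 80.7 CPM), and each dose overlaps its controls in every gene.

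Against own controls, 0 of 39 members passed edgeR at 500 mg/L (all genes: 0%), DESeq2 called 0, and 5 had an unadjusted p under 0.05 (4 positive, 1 negative), against 5.19% of all genes (2.73% higher and 2.46% lower). The mitotic members were again all positive, with a median of 0.13 and a range of 0.03 to 0.30. Single mice decided part of that count. Without control replicate 7 the mitotic median was 0.04 and 11 of 14 members were positive, and against all controls without replicate 3 at 500 mg/L it was 0.07, with 13 of 14 positive.

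Mouse by mouse, the mitotic kinesins often lay on the same side of the controls' mean together, in exposed and in control mice. As the median over the 14 members of log2 CPM less the mean of the own controls, the mice at 500 mg/L had 0.02, 0.24, 0.33, 0.10 and 0.08, against 0.22, -0.35, -0.04, -0.03 and 0.20 in control replicates 6 to 10. The mice at 10 mg/L had -0.23, 0.11, -0.11, -0.04 and 0.08, against 0.12, 0.05, -0.20, 0.07 and -0.06 in control replicates 1 to 5. Both doses overlapped their controls. In control replicates 7 and 3, 0 of the 14 members were above the control mean, in control replicates 1, 4 and 10 all 14 were, and at 500 mg/L all 14 were in replicates 2 and 3.

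**Figure D4:**
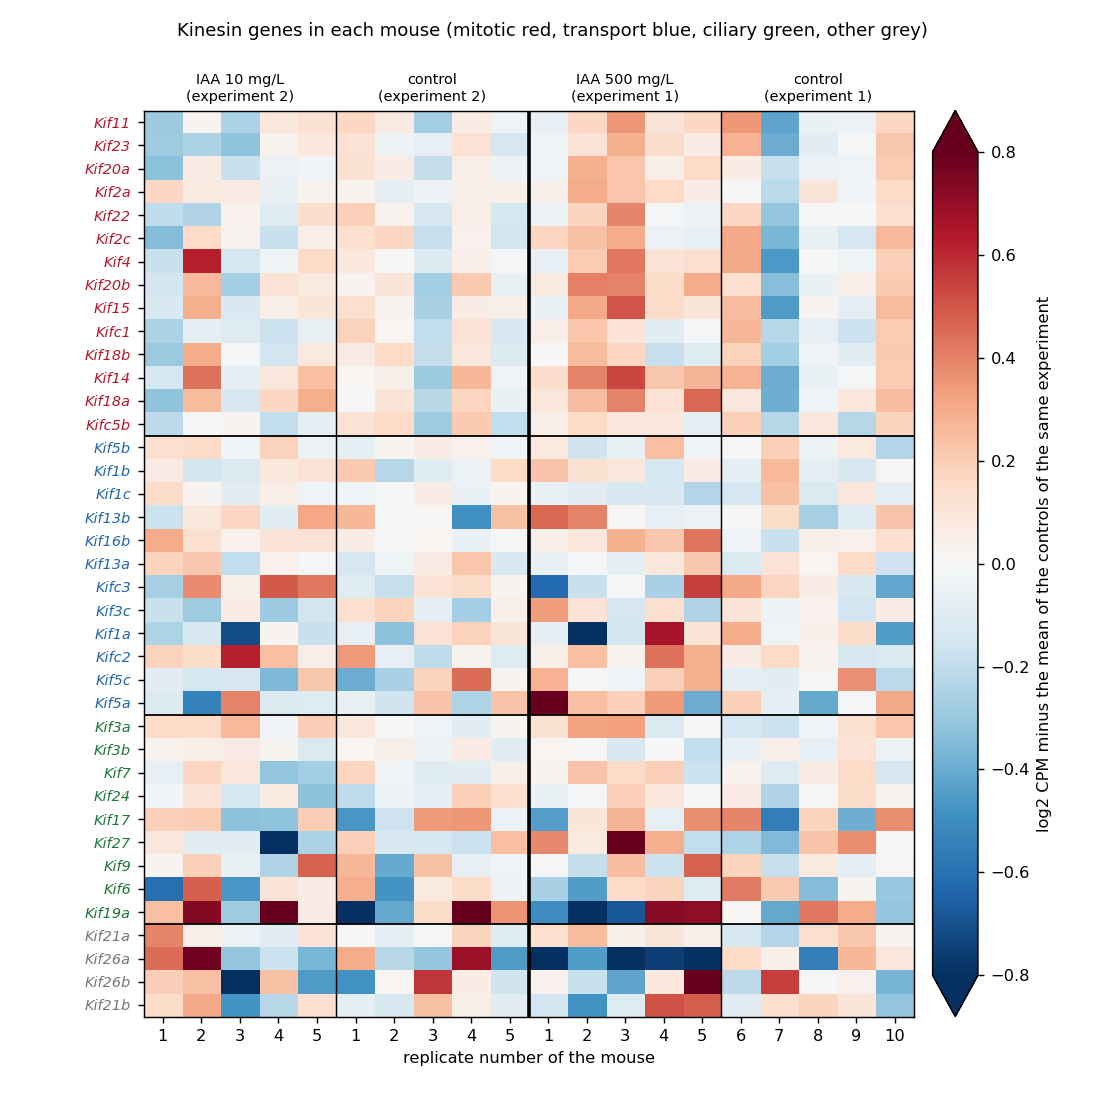
Log2 CPM of each kinesin gene in each mouse less the mean of the controls of the same experiment, with exposed mice left of their own controls and genes grouped by class. Columns of 1 colour run through the 14 mitotic rows, as in control replicate 7 (0 of 14 above 0) and replicates 2 and 3 at 500 mg/L (14 of 14), while transport and ciliary rows are mixed within a mouse.

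Control replicate 7 stood apart in other markers too. Its luteal markers summed to 3750 CPM, against 534 to 1530 CPM in the other 4 controls of experiment 1, its leukocyte markers to 138 CPM, against 44.6 to 80.1 CPM, and its theca markers to 11300 CPM, against 5830 to 7330 CPM. Its oocyte markers summed to 324 CPM, against 349 to 505 CPM. Their part in its low mitotic kinesins was not tested. Over the mice at 500 mg/L the oocyte markers summed to 350 to 696 CPM, against 324 to 505 CPM in own controls, with 10 of 10 positive (median log2 change 0.18), and granulosa markers to 8200 to 17100 CPM, against 10300 to 15300 CPM, with 5 of 10 positive (median -0.02). Erythroid markers summed to 31 to 133 CPM at 500 mg/L, against 17.1 to 63.1 CPM in own controls, with 5 of 5 positive (median 1.11). Theca markers summed to 5650 to 9390 CPM, against 5830 to 11300 CPM, with 6 of 8 positive (median 0.28). Those at an unadjusted edgeR p under 0.05 went opposite ways, Cyp17a1 higher (1.24) and Star lower (-1.33). Luteal markers had 1 of 6 positive (median -0.25), leukocyte markers 1 of 7 (median -0.16) and pericyte and smooth muscle markers 1 of 7 (median -0.10). The part of these markers in the changes at 500 mg/L was not tested.

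In no mouse did all transport or all ciliary kinesins lie on the same side: 3 to 9 of the 12 transport and 2 to 8 of the 9 ciliary members were above the mean of the own controls. At 500 mg/L the transport median per mouse was 0.06, 0.04, -0.02, 0.16 and 0.09, against -0.00, 0.13, 0.01, 0.01 and -0.09 in own controls. The ciliary median was -0.01, 0.01, 0.19, 0.09 and -0.01, against 0.03, -0.19, 0.06, 0.12 and -0.00.

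Mki67, which codes for the proliferation antigen Ki-67 and lies outside the family, was used to ask how the members follow proliferation from mouse to mouse. Values were centred by group and experiment, so the doses add nothing to the correlation. All 14 mitotic kinesins correlated positively with Mki67 over the 20 mice, with Pearson's r of 0.412 to 0.826 and a median of 0.624. Transport kinesins ranged from -0.382 to 0.235 (median -0.0472) and ciliary kinesins from -0.0938 to 0.587 (median 0.302), beside a median of -0.00155 over 17809 genes.

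By a two-sided permutation test within groups, with p-values adjusted by the Benjamini-Hochberg method for 17809 genes, 0 of 39 kinesins passed (all genes: 0%), by Pearson's r or by Spearman's rho. At an unadjusted permutation p under 0.05 there were 11 of 14 mitotic, 0 of 12 transport, 1 of 9 ciliary and 0 of the 4 other kinesins, against 5.46% of all genes. Kif4, a chromokinesin that binds Prc1 at the central spindle, was highest at r = 0.826 (permutation p = 0.00027, adjusted p = 0.683) and rho = 0.764 (permutation p = 0.00122, adjusted p = 0.905). Of all genes 0.0281% had an r above 0.8. Kif14 followed at r = 0.782 and rho = 0.743, then Kif15, a spindle motor that can stand in for Kif11, at r = 0.761 and rho = 0.728, and Kif11, which pushes spindle poles apart, at r = 0.712 and rho = 0.684 (unadjusted permutation p for r of 0.00095, 0.00067 and 0.00372, with adjusted p of 0.727, 0.683 and 0.901). The lowest mitotic members were Kif22 (r = 0.445), Kif2a (r = 0.418) and Kifc5b (r = 0.412).

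The mice farthest from the median in Mki67 were control replicate 7 and replicate 1 at 10 mg/L. Without them the mitotic r ranged from 0.179 to 0.724, with 4 of 14 at an unadjusted p under 0.05 (all genes: 3.89%), against 11 of 14 with them. Within experiment 1 it ranged from 0.498 to 0.885, with 8 of 14 at an unadjusted p under 0.05 (all genes: 6.56%), and within experiment 2 from 0.046 to 0.85, with 3 of 14 (all genes: 8.69%). Kif4 had r = 0.724 without the 2 mice, 0.802 within experiment 1 and 0.85 within experiment 2. Replicate 2 at 10 mg/L, kept in the first and last of these, had the highest centred Mki67 of all mice (0.2484). It had 75 CPM of Kif4, against 43.1 to 54.3 CPM in the other mice of that dose. The r of Kif4 without this mouse is not given here. Kif6, the 1 ciliary member, had r = 0.587 over all mice, 0.161 within experiment 1 and 0.927 within experiment 2, at a mean of 0.917 CPM.

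**Figure D5:**
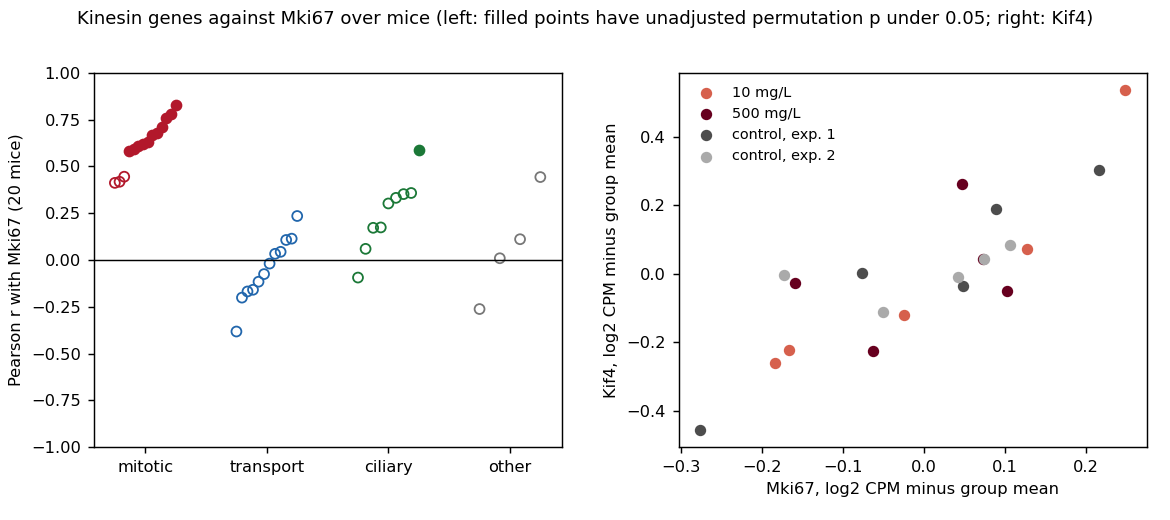
Left, Pearson's r of each kinesin gene with Mki67 over 20 mice by class, filled where the unadjusted permutation p is under 0.05, with all 14 mitotic members above 0 (11 filled). Right, Kif4 against Mki67 in each mouse, both as log2 CPM less the mean of the mouse's group in its experiment (r = 0.826).

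The doses were also compared with each other, which sets experiment 1 against experiment 2. edgeR called 0 of 39 kinesins, against 0.0112% of all genes, and DESeq2 called 0. An unadjusted p under 0.05 was given to 5 members, all higher at 500 mg/L, against 10% of all genes (5.61% higher and 4.43% lower). All 14 mitotic members were higher at 500 mg/L (median log2 difference 0.17, range 0.01 to 0.30), 9 of 12 transport members (median 0.08) and 5 of 9 ciliary members (median 0.05). Kif23 had 71.6, 79.1, 89, 80.5 and 76.1 CPM at 500 mg/L, against 58.2, 59.5, 56.7, 72.4 and 75.4 CPM at 10 mg/L. Its lowest mouse at 500 mg/L lay below the highest pair at 10 mg/L, so the groups overlapped. The log2 difference was 0.30 (SE 0.11, adjusted p = 0.351). Kif20b followed at 0.29 (SE 0.11, adjusted p = 0.386), and Kif20a, which carries the chromosomal passenger complex to the central spindle, at 0.21 (SE 0.08, adjusted p = 0.402).

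The test of whether the 2 doses differed in their effects, each against own controls, gave 0 calls among the 39 (all genes: 0%, DESeq2 0) and 1 unadjusted p under 0.05, that of Kif26a (log2 difference of effects -0.98, SE 0.36, adjusted p = 0.865), against 5.41% of all genes (2.03% positive and 3.38% negative). The mitotic median was 0.18, with 14 of 14 positive and a smallest adjusted p of 0.914. No difference between the doses was thus shown for any kinesin.

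With either dose against water and experiment as a term, 0 of 39 were called (all genes: 0.0112%, DESeq2 0). An unadjusted p under 0.05 was given to 5 members, all higher in exposed mice, against 6.81% of all genes (3.45% higher and 3.35% lower). Kif16b had the smallest p, with a log2 change of 0.18 (SE 0.05, adjusted p = 0.63), and Kifc2 came next at 0.23 (SE 0.09, adjusted p = 0.633). The mitotic median was 0.03, with 11 of 14 positive.

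The controls of experiment 1 against those of experiment 2 show how far kinesins differed without IAA. edgeR called 0 of 39, against 0.157% of all genes, and DESeq2 called 0. An unadjusted p under 0.05 was given to 3 members, all higher in experiment 1, against 9.78% of all genes (5.24% higher and 4.54% lower). Kif5b had 224, 255, 217, 235 and 190 CPM in experiment 1, against 182, 196, 201, 197 and 188 CPM in experiment 2, with only replicate 10 of experiment 1 within the range of experiment 2. The log2 difference was 0.22 (SE 0.08, adjusted p = 0.368). Kif3a differed by 0.23 (SE 0.09, adjusted p = 0.392), close to its change at 500 mg/L against all controls, and Kif1c by 0.16 (SE 0.07, adjusted p = 0.43). The mitotic median was 0.01 (9 of 14 positive). Of the luteal, leukocyte, pericyte and smooth muscle, oocyte, erythroid and theca markers, edgeR called 0 between the control sets. Luteal markers had 5 of 6 positive (median log2 difference 0.95) and leukocyte markers 6 of 7 (median 0.48). Pericyte and smooth muscle markers had 7 of 7 (median 0.17), oocyte 1 of 10 (median -0.29) and erythroid 0 of 5 (median -0.38). Theca markers had 3 of 8 positive (median -0.24), with 1 higher and 2 lower at an unadjusted edgeR p under 0.05. At that p 2 luteal, 1 leukocyte and 1 pericyte and smooth muscle marker were higher, and 1 oocyte and 1 erythroid marker lower. Control replicate 7 had the highest luteal (3750 CPM) and leukocyte sums (138 CPM) of the controls. The other luteal sums of experiment 1 (534 to 1530 CPM) overlapped those of experiment 2 (409 to 1580 CPM). So did the leukocyte sums (44.6 to 80.1 against 46.2 to 75 CPM). The part of these markers in the kinesin values was not tested. In none of 6 comparisons of groups did any kinesin have CPM ranges that did not overlap, against 0.0955% of all genes for 10 mg/L and 0.331% for 500 mg/L with all controls, 1.04% and 0.932% with own controls, 2.17% for 500 against 10 mg/L and 3.1% for the control sets.

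Genes that work with each class were read in the same fits, from lists set with earlier results of these data known. In every comparison edgeR called 0 of them, against 0% to 0.157% of all genes. At 500 mg/L against all controls, 19 of 24 spindle and cytokinesis partners were positive (median log2 change 0.09), among them Nuf2, an outer kinetochore protein, at 0.22 (SE 0.08, adjusted p = 0.417), and Mki67 at 0.21 (SE 0.08, adjusted p = 0.472). Mki67 and Top2a are in that list as proliferation genes and not as partners of the motors. Of 23 intraflagellar transport genes 19 were positive (median 0.09), with Ift74 at 0.34 (SE 0.09, adjusted p = 0.297) and Ift81, its partner in the same complex, at 0.19 (SE 0.09, adjusted p = 0.542). Of 20 cargo adaptors of transport kinesins 9 were positive (median -0.01), and of 21 dynein and dynactin genes 11 (median 0.00). At an unadjusted edgeR p under 0.05, 0 adaptors were higher and 3 lower, among them Mapk8ip1 (-0.21) and Kifbp (-0.12). Of the dynein and dynactin genes 1 was higher and 4 lower. The spindle partners and the intraflagellar transport genes each had 2 higher and 0 lower, against 4.51% of all genes higher and 4.18% lower. Over all genes 49.9% were positive. Kifap3, the non-motor subunit that joins Kif3a and Kif3b, averaged 56.1 ± 3.13 CPM at 500 mg/L (SD, n = 5) and 52.5 ± 3.38 CPM in controls (SD, n = 10). At 10 mg/L 7 of 24 spindle partners were positive (median -0.05) and 13 of 23 intraflagellar transport genes (median 0.00), again beside 49.9% of all genes.

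Cenpe, a mitotic kinesin of the kinetochore, and Stard9, a kinesin of the centrosome, carry names outside the rule. Cenpe averaged 83.4 ± 6.58 CPM at 500 mg/L (SD, n = 5), against 66.6 ± 9.88 CPM in controls (SD, n = 10), with ranges of 76.3 to 92.1 and 49.2 to 82.9 CPM that overlapped. Its log2 change was 0.32 (SE 0.10, adjusted p = 0.346), like those of Kif20b, Kif14 and Kif18a. Stard9 had a change of 0.22 (SE 0.10, adjusted p = 0.563).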

How the data were processed

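Stranded mRNA libraries of 20 mice were sequenced for 101 cycles from 1 end, per the labels' protocols. Build GRCm39 is named in the submitters' processing notes, with Salmon 1.2.0, R 4.1.2, limma, edgeR and FastQC 0.11.8 as tools. The authors deposited estimated counts per gene, not normalised, and a table that holds, per the file headers, average log2 expression, p-values, an F statistic (a score) and signed fold changes, used here only where named.

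Counts were rounded and analysed in R 4.3.3 with edgeR 4.0.16: expression filter by group, TMM scaling, robust quasi-likelihood F-test, two-sided, Benjamini-Hochberg adjustment over 17810 genes at 0.05. One model had a mean per dose group, a second a mean per group and experiment, and another exposure and experiment. SE derives from the F statistic and 95% intervals are 1.96 SE, which is narrower than the edgeR test allows. For Kifc2 at 10 mg/L against own controls the interval was 0.01 to 0.50 although the unadjusted edgeR p was 0.0595. CPM use TMM-scaled sizes. Log2 CPM per mouse used a prior count of 2. Correlations used 100000 permutations of mice within groups. Their adjustment, planned over the kinesins, was widened to all genes. The edgeR p-values set a difference between groups against the spread between mice. Where all controls were combined or the doses compared, the model had no term for experiment. That spread exceeded counting error: between pairs of libraries within a set, chi-square divided by the number of genes was 21.8 to 150. Transcript lengths came from GENCODE annotation.

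The members, classes and lists were chosen with earlier results of these data known. Named are the 3 members per class with the highest CPM, the 3 with the smallest p per class and comparison, and up to 4 partners per list. Other members named were chosen after their values were seen. Alternatives were DESeq2 1.42.0 and its size factors, limma-trend and limma-voom from limma 3.58.1, other filters, only the groups compared, a replicate block, and each mouse left out.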

Additional observations from a re-analysis of the deposited data

Results flagged for a closer look

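Of 75 groups tested over 25 named kinesins, 1 held a mouse far from the others. Kif3b was 55.4 CPM in replicate 5 at 10 mg/L, and the other 4 mice of that dose had 60.7 to 62.8 CPM. The gap was 0.716 of the group's range. Chance marks about 1 in 20 groups of this size.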

How the results depend on the processing

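The count of kinesins called was 0 in all 8 comparisons with edgeR under every scaling, filter and left-out mouse tried and with limma-trend and limma-voom, and in the 5 comparisons run without replicate 2 at 10 mg/L and replicate 5 at 500 mg/L together. DESeq2 called 1 at 500 mg/L against all controls, Kif16b, with an adjusted p of 0.0315, and 0 in the other comparisons. The cause was not tested. Over all genes DESeq2 called 8 at 10 mg/L and 84 at 500 mg/L against all controls, 31 and 5 against own controls, 118 between doses, 16 for either dose, 15 for the difference of effects and 193 between control sets, against 1, 2, 0, 0, 2, 2, 0 and 28 with edgeR. Between control sets edgeR called 11 with no filter and 48 with at least 1 CPM in 5 mice. The count of mitotic kinesins that passed with Mki67 was 1, Kif15, when values were not centred by group and experiment (8 of 17809 genes passed there), and 0 with Top2a in place of Mki67, a prior count of 0.5, within either experiment and without the 2 farthest mice. With Top2a the mitotic r was 0.495 to 0.926, and the smallest adjusted permutation p was 0.0594. There 13 of 14 had an unadjusted permutation p under 0.05 (all genes: 8.92%). With 1 mouse left out, the transport median of the difference between own-control effects ranged from 0.02 to 0.09. The log2 change at 10 mg/L against all controls ranged from -0.236 to 0.049 for Kif6, from -0.181 to 0.0258 for Kif27 and from -0.0757 to 0.0238 for Kif24. The difference between control sets ranged from -0.0156 to 0.123 for Kif20b, from -0.014 to 0.143 for Kif23 and from -0.00218 to 0.146 for Kif18a.

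Mice that share a replicate number came from different groups, and 3 of 15 such pairs correlated above 0.1 (range -0.128 to 0.228). Pairs with a mouse at 500 mg/L join different experiments, so they do not bear on pairing. Within experiment 2, mice at 10 mg/L and controls of the same number correlated at -0.128, 0.0879, -0.000961, -0.11 and 0.0815. No pairing by number was seen there. With the replicate block 0 kinesins were called in each of the 4 comparisons that could be fitted. Over all genes it called 17 at 500 mg/L against all controls, against 2 without it, and 8 against 2 between the doses. Both of these comparisons used numbers shared by mice of different experiments. No block could be fitted for 500 mg/L against own controls, which share no number. Kif19a, at a mean of 0.763 CPM, was the least precise member.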
